A study of Homo sapiens with 10 samples.

Results

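CDKN1A, MDM2, BAX, PMAIP1, BBC3, SESN1, GADD45A, PHLDA3, TP53I3 and ZMAT3 are 10 genes that the transcription factor p53 is known to induce. They were looked up by symbol among the 54201 loci with an annotated gene identifier in a deposited gene table of 241080 loci. Each symbol matched 1 locus, and all 10 loci had the status OK, meaning that the authors' test was run. MDM2 shares its locus with the transcript RP11-611O2.3, so reads of the 2 cannot be told apart there, and the other 9 loci name 1 gene each.

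The RNA came from nuclei of HEK293 cells, a human embryonic kidney line kept as adherent cultures, grown at 37 °C and 5% CO2. Fractionation gave 3 samples of soluble nuclear extract (SNE) and 3 of chromatin pellet extract (CPE), described as biological replicates, and stranded total RNA libraries were sequenced. The cells of both fractions are the same untreated line, so the comparison is between places in the nucleus and not between states of p53. Chromatin pellets with the elongation inhibitor DRB (2 samples) and with mock treatment (2 samples) were also labelled, and they are not analysed here.

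p53 is held at a low level by MDM2, a ubiquitin ligase that marks it for degradation and whose gene is itself a p53 target, which closes a feedback loop. When kinases that sense DNA damage stabilise p53, it binds paired half-sites in its target genes and raises genes for cell cycle arrest, apoptosis, repair and metabolism. HEK293 cells carry adenoviral early-region proteins, and one of these binds p53 and represses its activity, so target genes in this line are read against that background.

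The value for each fraction was an FPKM, a fragment number scaled by transcript length and by library size. The authors combined the replicates into 1 such value per fraction, so replicate error cannot be given and the depth of each library is unknown. A gene was called where the q value of the authors' Cuffdiff test, adjusted over the whole table, was at most 0.05. In bulk fractions, less RNA of a gene per nucleus and fewer nuclei with that RNA cannot be told apart.

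As a check of the cell line, the epithelial and mesenchymal genes VIM, KRT8 and KRT18 had FPKM values in SNE of 173, 86.9 and 1801 by the authors' deposited table. KRT18 shares its locus with AC107016.2, so the value is not that of KRT18 alone. The other 5 HEK293 markers listed (NEFM, NEFL, PAX2, LHX1 and EYA1) lay between 0.0755 and 2.79 in SNE, with the neurofilament genes NEFM and NEFL too low to be tested. Markers of blood, liver, fibroblasts, endothelium and islets were at most 1.45 in either fraction, which was the SNE value of COL1A1. The islet marker INS shares its locus with IGF2, INS-IGF2 and AC132217.4. The blood genes PTPRC and HBB were listed at 0 in SNE.

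The element through which p53 acts is shown first, since it is the feature by which these genes are grouped. RefSeq promoter windows (GRCh38.p14, 250 bases before to 50 after a transcript start) were found for 8 of the 10 genes, in 14 windows. The 250 bases before each start were searched on both strands for the p53 consensus half-site of 10 bases, which has a fixed C and a fixed G. The inner MDM2 promoter held 3 half-sites with 1 mismatch each, of which 2 lie side by side, in chr12:68808913-68808990 of GRCh38.p14, plus strand, 104 to 27 bases before the start. No MDM2 exon of GENCODE 29 overlaps that stretch. A SESN1 promoter held 1 half-site without a mismatch, in chr6:109009018-109009047, minus strand, 59 to 30 bases before the start. Half-sites are in capitals in both sequences, written 5′ to 3′.
MDM2: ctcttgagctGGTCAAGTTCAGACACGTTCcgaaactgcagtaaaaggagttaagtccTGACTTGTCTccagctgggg
SESN1: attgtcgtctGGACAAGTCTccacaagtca

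A half-site without a mismatch occurred in 1957 of all 35116 RefSeq promoter windows (5.57%), and a half-site with at most 1 mismatch in 13794 (39.3%), so a single match is common. A side-by-side pair of half-sites with at most 1 mismatch apiece occurred in 49 windows (0.14%). Of the 8 genes with a window, 5 had a half-site with at most 1 mismatch: MDM2, SESN1, PMAIP1, BBC3 and ZMAT3. Counted by window this was 7 of 14 (50%), beside the 39.3% of all windows. The inner MDM2 promoter is counted as 2 of the 7, in overlapping windows that hold the same half-sites. GADD45A and PHLDA3 were not searched. The windows of CDKN1A, BAX and TP53I3 held no such letters, which says nothing of sites elsewhere in those genes. A match is a description of sequence, and no binding was measured in this study.

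All 10 p53 target genes had a lower FPKM in the chromatin pellet than in the soluble extract. CDKN1A, BAX, TP53I3, BBC3, PMAIP1, PHLDA3 and GADD45A, 7 of the 10, were called higher in SNE at q of at most 0.05, by 5.54-fold for CDKN1A down to 2.52-fold for GADD45A. SESN1, ZMAT3 and MDM2 were not called, and 0 of the 10 were higher in CPE. Over all 18271 tested loci with a symbol, 39.3% were called higher in SNE and 1.83% higher in CPE. Over the 9056 tested protein-coding loci that name 1 gene and reach an FPKM of 1 in a fraction, 56.8% were called higher in SNE and 0.519% higher in CPE, and the 70% of the target genes stands beside that share. At an unadjusted Cuffdiff p under 0.05, 10 genes were on the soluble side and 0 on the chromatin side, against 50.7% and 3.22% of the loci with a symbol. The share of the protein-coding loci at this p was not computed, and it cannot be below their 56.8% by q. No excess of the target genes is therefore read from the 50.7%.

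Log2 ratios of CPE over SNE had a median of -1.56 over the 10 genes, from -2.47 for CDKN1A to -0.70 for MDM2. It was -1.24 over 17715 tested loci with a symbol and a finite ratio, and -1.44 over 9050 protein-coding loci (interquartile range -1.95 to -0.82). Of the 10 genes, 6 lay below that protein-coding median and 4 above it. A lower level in chromatin was thus common to most messenger RNAs of the table, and nothing particular to p53 targets is read from these counts.

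The order of the levels was the same for all 10 genes in both fractions. MDM2 was highest, followed by PMAIP1, BAX, SESN1, CDKN1A, TP53I3, PHLDA3, GADD45A, ZMAT3 and BBC3. FPKM in SNE spanned 1.28 to 351.7, a 275-fold range with a median of 25.2, and FPKM in CPE spanned 0.398 to 216, a 543-fold range with a median of 5.23. The median protein-coding locus had 16.7 in SNE and 6.95 in CPE, and 6 of the 10 genes lay above it in SNE and 4 in CPE. Without values per sample, it cannot be said which neighbours in this order differ beyond their spread. SESN1 and CDKN1A were close in SNE, at 34.9 and 33.2, and further apart in CPE, at 14.2 and 6.002, by the authors' deposited table.

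**Figure D1:**
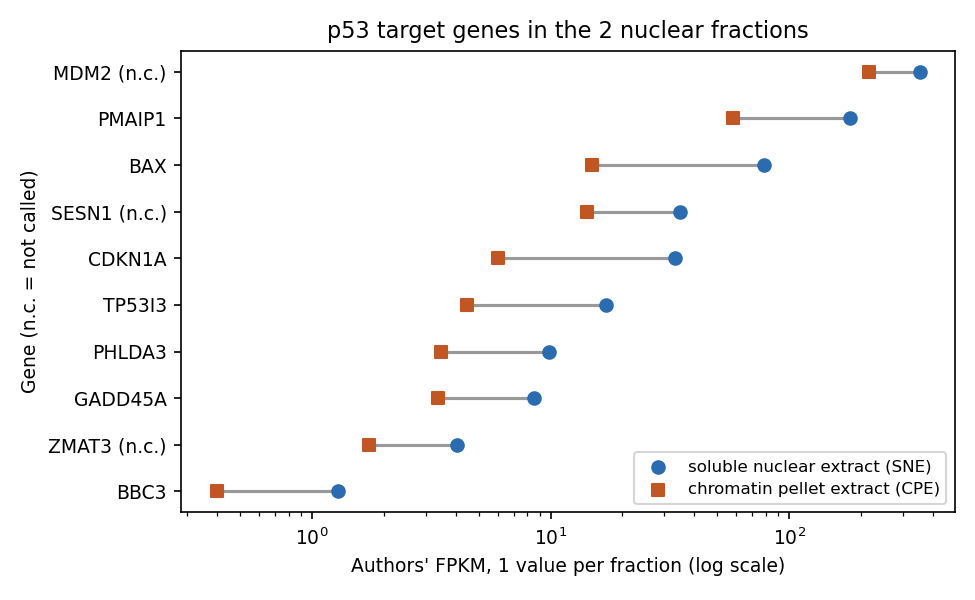
Authors' FPKM of each p53 target gene (log axis) in SNE (circles) and CPE (squares), 1 value per fraction, with genes ordered by SNE level and n.c. marking those not called. Every square lies left of its circle, and the gap is widest for CDKN1A (33.2 against 6.002) and narrowest for MDM2 (351.7 against 216).

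Cell cycle arrest genes were higher in the soluble extract. CDKN1A encodes p21, the inhibitor of cyclin-dependent kinases through which p53 halts the cell cycle. For CDKN1A the authors' deposited table gave 33.2 FPKM in SNE and 6.002 in CPE (region on hg19 chromosome 6, 36644291 to 36655543). Its log2 ratio of -2.47 was the lowest of the 10 genes and lay at percentile 6.16 of the protein-coding loci (Cuffdiff q = 0.000706, the smallest q of the table). GADD45A, a growth arrest gene induced by DNA damage, stood at 8.52 FPKM in SNE against 3.37 in CPE by the authors' deposited table (chromosome 1, 68150744 to 68158377). The GADD45A log2 ratio of -1.34 was also called at the smallest q, but it lay at percentile 55.1 of the protein-coding loci, so GADD45A was about as soluble as the typical messenger RNA.

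The 3 apoptosis genes differed widely in level and were all called higher in SNE. BAX, the pore-forming protein of the mitochondrial outer membrane, stood at 78.0 FPKM in SNE against 14.9 in CPE by the authors' deposited table, 5.22-fold (q = 0.000706; chromosome 19, 49458072 to 49465055). PMAIP1, or NOXA, a BH3-only protein that neutralises survival proteins of the BCL2 family, stood at 179.3 FPKM in SNE against 58.3 in CPE by the authors' deposited table, 3.08-fold (q = 0.000706; chromosome 18, 57567180 to 57574855). BBC3, or PUMA, another BH3-only protein, stood at 1.28 FPKM in SNE against 0.398 in CPE by the authors' deposited table, 3.22-fold (q = 0.00307; chromosome 19, 47724081 to 47736023). PMAIP1 was thus the highest of the 3 in both fractions, and BBC3 was the lowest of all 10 genes. PMAIP1 exceeded 97.0% of the tested 1-symbol loci in SNE, BAX 92.4% and BBC3 32.4%. The low level of BBC3 matters for its ratio, which shrank from -1.69 to -0.71 when 1 was added to both FPKM values, while that of BAX moved from -2.38 to -2.31.

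TP53I3, PHLDA3, SESN1 and ZMAT3 act in redox metabolism, growth signalling and RNA regulation. TP53I3, a quinone oxidoreductase, stood at 17.1 FPKM in SNE against 4.46 in CPE by the authors' deposited table, 3.84-fold (q = 0.000706; chromosome 2, 24288805 to 24424567). PHLDA3, which competes with the kinase AKT for membrane lipids, stood at 9.82 FPKM in SNE against 3.47 in CPE by the authors' deposited table, 2.83-fold (q = 0.00414; chromosome 1, 201433293 to 201438365). Both were called. SESN1, a sestrin that restrains mTORC1 signalling, stood at 34.9 FPKM in SNE against 14.2 in CPE by the authors' deposited table, a log2 ratio of -1.29 that was not called (q = 0.0724; chromosome 6, 109304052 to 109416022). ZMAT3, a zinc finger protein that binds RNA, stood at 4.06 FPKM in SNE against 1.73 in CPE by the authors' deposited table, a log2 ratio of -1.23 that missed the threshold narrowly (q = 0.0538; chromosome 3, 178730429 to 178790067). The ratios of SESN1 and ZMAT3 lay just above that of GADD45A (-1.34), the called gene nearest to 0, so the 7 called genes had the 7 lowest ratios of the 10.

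MDM2 stood apart in level and had the ratio closest to 0. It stood at 351.7 FPKM in SNE against 216 in CPE by the authors' deposited table, 1.63-fold, and was not called (q = 0.187; chromosome 12, 69201956 to 69365350). MDM2 exceeded 98.8% of the tested 1-symbol loci in SNE and 99.3% in CPE. Its log2 ratio of -0.70 lay at percentile 78.6 of the protein-coding loci, the highest of the 10 genes, followed by ZMAT3 at 59.9 and SESN1 at 57.1. The part that RP11-611O2.3, merged into this row, has in these values was not tested.

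The q values depend on how many loci share the adjustment, most of which carry no symbol. With the authors' p adjusted by the Benjamini-Hochberg method over the 18271 tested loci with a symbol, SESN1 (adjusted p = 0.0236) and ZMAT3 (adjusted p = 0.0172) were also called higher in SNE, and MDM2 (adjusted p = 0.0672) was not. That made 9 of 10 genes higher in SNE and 0 in CPE, against 46.4% and 2.61% of all tested loci with a symbol under the same rule. Stricter rules kept the 7 calls or lost 1. With q of at most 0.01, 7 genes were called higher in SNE and 0 in CPE, against 32% and 1.31% of the loci. An absolute log2 ratio of at least 1 also left 7 and 0, against 37.3% and 1.58%. With an FPKM minimum of 1 in both fractions the call of BBC3 was lost, which left 6 and 0 genes. Of the 11388 tested loci with a symbol that reach this minimum, 5960 were called higher in SNE and 146 higher in CPE. Over all 18271 loci, also those below the minimum, these made 32.6% and 0.799%. Among rows naming 1 gene, 7 of 9 genes and 0 of 9 were called, against 39.1% and 1.71% of 16699 loci. Shares of the protein-coding loci under these alternative rules were not computed.

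Upstream of these genes, most transcripts of p53's regulators lay on the soluble side. Of 20 tested regulators, 17 had a negative ratio and 3 a positive one, 10 were called for SNE, 1 for CPE and 9 for neither, with a median log2 ratio of -0.94. The 50% called for SNE stands beside 56.8% of the protein-coding loci, whose median was -1.44, so the regulators were not more soluble than these. Among the 20 rows, 2 name a further gene. The 1 higher in CPE was MDM4, the relative of MDM2 that binds p53 and represses it, and the other positive ratios were those of ATM (0.14) and RFWD2 (0.08), which were not called. These 3 are named after their values were seen. MDM4 stood at 16.3 FPKM in SNE against 34.2 in CPE by the authors' deposited table, 2.10-fold (q = 0.0117). MDM4 and MDM2 thus had log2 ratios of 1.07 and -0.70, both above the median of the regulators, and the difference between them was not tested.

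Among the other regulators, CDKN2A, whose alternative frame encodes the MDM2 inhibitor ARF, had the largest called ratio, at 125.4 FPKM in SNE against 22.9 in CPE by the authors' deposited table (q = 0.0192). HIPK2, a kinase that phosphorylates p53, was 4.06-fold higher in SNE by the authors' deposited table (q = 0.000706). USP7, the deubiquitinase of MDM2 and p53, stood at 148.5 FPKM in SNE against 75.6 in CPE by the authors' deposited table and was called close to the threshold (q = 0.0463). PRKDC, the catalytic subunit of DNA-dependent protein kinase, stood at 122.9 FPKM in SNE against 77.1 in CPE by the authors' deposited table, without a call (q = 0.437). The log2 ratios of the regulators thus ranged from -2.45 for CDKN2A to 1.07 for MDM4.

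Other p53 targets for the cell cycle ranged from called genes on the soluble side to genes with ratios near 0. Of 8 tested, 7 had a negative ratio and 1, PTP4A1, a positive one, 5 were called for SNE, 0 for CPE and 3 for neither, with a median of -1.25. The list takes in CCNG2 and GTSE1 as relatives or cofactors known in the p53 response, and both are among the 5 called. At an unadjusted Cuffdiff p under 0.05, 6 were on the soluble side and 0 on the chromatin side, against 50.7% and 3.22% of all tested loci with a symbol. The share of protein-coding loci at this p was not computed. By q, 62.5% of the list were called for SNE, beside 56.8% of protein-coding loci. CCNG1, cyclin G1, which recruits a phosphatase to MDM2, stood at 406.1 FPKM in SNE against 98.7 in CPE by the authors' deposited table (q = 0.000706), above even MDM2 in the soluble extract. RPRM, or reprimo, which acts in arrest before mitosis, was 3.94-fold higher in SNE by the authors' deposited table (q = 0.000706). PTP4A1, a phosphatase, stood at 25.5 FPKM in SNE against 32.1 in CPE by the authors' deposited table, without a call (q = 0.493).

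Other apoptosis targets were on the soluble side without exception in sign, though not all were called. Of 15 tested, 15 had a negative ratio, 9 were called for SNE, 0 for CPE and 6 for neither, with a median of -1.59. At an unadjusted Cuffdiff p under 0.05 the counts were 10 and 0, against 50.7% and 3.22% of all tested loci with a symbol, with no share computed for protein-coding loci. The 60% called for SNE lies near the 56.8% of protein-coding loci, whose median was -1.44 with an upper quartile of -0.82. SIVA1, a proapoptotic protein, stood at 200.7 FPKM in SNE against 45.8 in CPE by the authors' deposited table. RPS27L, a ribosomal protein paralog, stood at 115.1 FPKM in SNE against 24.2 in CPE by the authors' deposited table, and its similarity to RPS27 leaves read assignment uncertain. EI24 and NINJ1, a membrane protein of the endoplasmic reticulum and a cell surface protein of membrane rupture, exceeded their CPE values by 5.63-fold (q = 0.000706) and 5.26-fold (q = 0.00307) by the authors' deposited table.

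Targets for DNA repair and metabolism lay mostly on the soluble side. Of 20 tested, 18 had a negative ratio and 2 a positive one, 11 were called for SNE, 0 for CPE and 9 for neither, with a median of -1.58. At an unadjusted Cuffdiff p under 0.05 the counts were 15 and 0, against 50.7% and 3.22% of all tested loci with a symbol. Protein-coding loci alone were not counted at this p, so no excess is read from these counts. Calls for SNE by q made 55% of the list, near the 56.8% of protein-coding loci. PCNA, the sliding clamp of DNA replication, stood at 298.8 FPKM in SNE against 69.6 in CPE by the authors' deposited table. GPX1, a glutathione peroxidase, stood at 106.4 FPKM in SNE against 19.4 in CPE by the authors' deposited table. TP53I11 had the largest called ratio of this list, 5.72-fold, at 4.62 FPKM in SNE against 0.807 in CPE by the authors' deposited table. The smallest q of the table, 0.000706, was shared by PCNA, GPX1 and TP53I11. The 2 with a positive ratio, named after their values were seen, were GDF15, a secreted stress cytokine (log2 ratio 0.38, q = 0.569), and ASCC3, a helicase subunit (0.01, q = 0.947), by the authors' deposited table, and neither was called.

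Relatives and partners of the 10 genes, most of them not p53 targets, gave a median of -1.28. Of 13 tested, 7 were called for SNE (53.8%, beside 56.8% of protein-coding loci), 0 for CPE and 6 for neither. The unadjusted Cuffdiff p was under 0.05 for 7 on the soluble side and 0 on the chromatin side, against 50.7% and 3.22% of all tested loci with a symbol. For protein-coding loci this share was not computed. BAK1, the partner of BAX at the mitochondrial membrane, was 6.13-fold higher in SNE by the authors' deposited table (q = 0.00194), a ratio close to that of BAX. MCL1, the survival protein that PMAIP1 binds, stood at 70.5 FPKM in SNE against 29.02 in CPE by the authors' deposited table (q = 0.000706). GADD45GIP1, which binds GADD45 proteins and belongs to the mitochondrial ribosome, was 7.96-fold higher in SNE by the authors' deposited table (q = 0.0112). The sestrin gene SESN2 lies in a region above the data limit of Cuffdiff, so it could not be set beside SESN1.

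Over the regulators and other targets together, with each row counted once, 35 of 63 tested loci were called for SNE (55.6%), 1 for CPE and 27 for neither. Their median log2 ratio was -1.30. These shares also lie near the 56.8% of protein-coding loci.

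**Figure D2:**
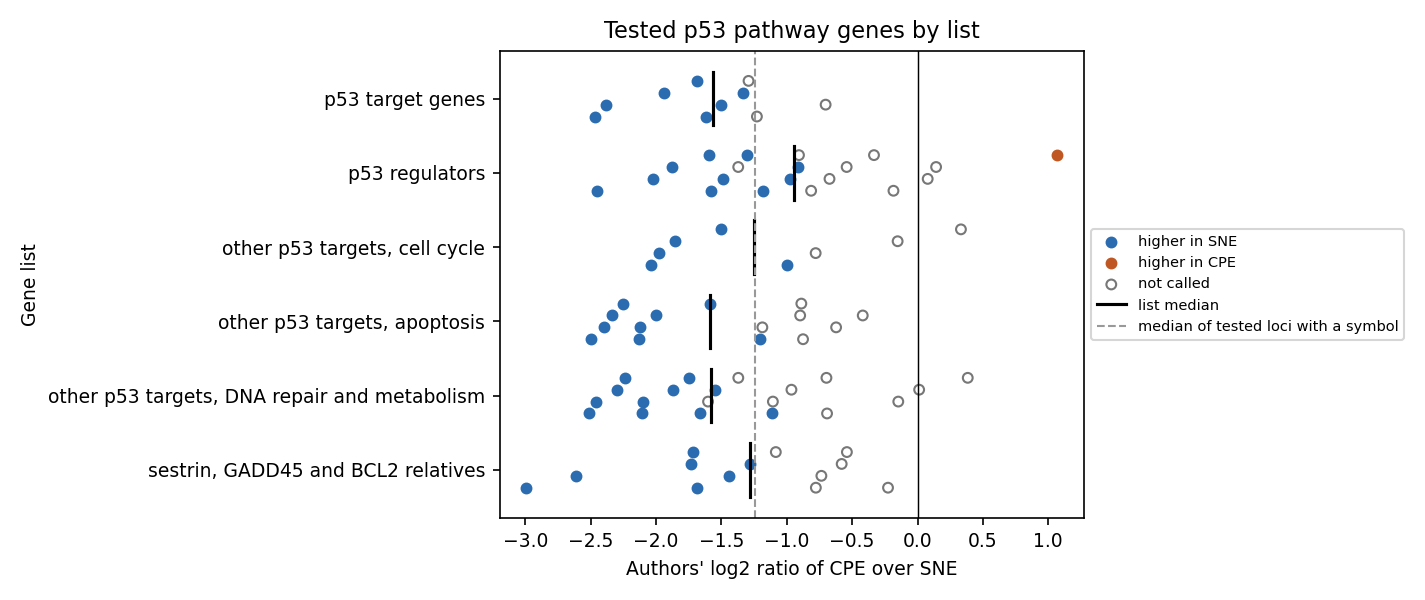
Authors' log2 ratio of CPE over SNE of each tested gene (points) in the 10 p53 target genes and 5 further lists, coloured by call, with list medians as black bars and the median of tested loci with a symbol (-1.24) as a dashed line. MDM4, at 1.07 in the regulator list, is the only gene drawn as higher in CPE.

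The chromatin pellet held other RNA from the regions of the target genes. The table assigns each locus to a region that can hold several loci, and all 10 regions held at least 1 locus without a symbol. Of 79 such loci 77 were tested, and 77 had a positive log2 ratio, opposite in sign to the gene beside them. Among all 174660 tested loci without a symbol, 97.3% had a positive ratio, so the sign of the tested loci in these regions is that of the table. The untested loci had too few data for the test and went the other way. In the BBC3 region 1 stood at 6.51 FPKM in SNE against 1.14 in CPE (log2 ratio -2.51). In the MDM2 region 1 stood at 1.40 against 0.476 (-1.56). Of the 77, 8 (10.4%) were called higher in CPE and 0 higher in SNE by Cuffdiff's q, against 9.45% and 0.63% of all loci without a symbol. Among unnamed loci in regions with a tested symbol locus, 6.96% were called higher in CPE. At an unadjusted Cuffdiff p under 0.05 the counts were 14 and 0, and the matching share over all unnamed loci was not computed. SESN1's region held 41 of the tested loci, and the 9 other regions held 36, of which 6 were called. Loci of a region are not independent. The strand and exact position of these loci are not in the table, so whether they are introns, flanks or antisense transcripts was not tested.

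In compact regions with no other symbol, the contrast could be read against the gene alone. The GADD45A region held 1 unnamed locus at 0.219 FPKM in SNE against 2.92 in CPE by the authors' deposited table (log2 ratio 3.74, q = 0.000706). GADD45A itself was 38.9 times that locus in SNE and 1.15 times in CPE. The PMAIP1 region held 1 unnamed locus at 4.72 and 12.8 by the authors' deposited table (log2 ratio 1.44, q = 0.000706), and PMAIP1 was 38.0 times it in SNE and 4.56 times in CPE. In both regions, then, the gene and the unnamed locus were called in opposite directions.

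The CDKN1A region held 3 unnamed loci with CPE values of 0.983 to 2.06, 1 of them called (log2 ratio 2.45, q = 0.00899 by the authors' deposited table). CDKN1A was 102 times the one of highest CPE level in SNE and 2.91 times in CPE. In the ZMAT3 region 2 of 3 unnamed loci were called higher in CPE, with log2 ratios of 4.33 (q = 0.000706) and 4.30 (q = 0.00134) by the authors' deposited table. ZMAT3 was 57.2 times the one of highest CPE level in SNE and 1.22 times in CPE. BAX had 1 unnamed locus beside it, with a log2 ratio of 0.61 that was not called (q = 0.305 by the authors' deposited table), and PHLDA3 had 1 with a ratio of 0.66, also not called (q = 0.138 by the authors' deposited table).

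The larger regions of MDM2, TP53I3 and SESN1 held many unnamed loci and few calls. Around MDM2, 13 tested unnamed loci had log2 ratios of 0.96 to 4.74, with 1 called (2.16, q = 0.00251 by the authors' deposited table), and the highest reached an FPKM of 50.5 in CPE without a call (q = 0.495 by the authors' deposited table). Around SESN1 the median of the finite ratios was 3.88 and 2 of 41 loci were called. Around TP53I3, 0 of 11 were called, and the one of highest CPE level stood at 15.8 FPKM there by the authors' deposited table, so that TP53I3 was 10.4 times it in SNE and 0.282 times in CPE. The TP53I3 region also holds 3 other tested loci with a symbol. SF3B14, a protein of the spliceosome, was 4.33-fold higher in SNE by the authors' deposited table (q = 0.000706), a ratio close to that of TP53I3. PFN4 (log2 ratio -0.41, q = 0.849) and the merged row of FAM228A, FAM228B and RP11-507M3.1 (-0.41, q = 0.615) were nearer to 0 and not called. The MDM2 region likewise holds 3 other tested loci with a symbol, also not called. These were RP11-611O2.1, with a positive log2 ratio (2.42, q = 0.556), RP11-611O2.5 (-1.37, q = 0.688) and the merged row of CPM and PRELID2P1 (-2.10, q = 0.493). In the PHLDA3 region RP11-134G8.8 was not called either (-0.78, q = 0.609). The BBC3 region held 2 tested unnamed loci, with ratios of 0.93 and 1.65 and no call, and BBC3 was 4.43 times the higher of them in SNE and 0.722 times in CPE. In the 8 regions other than those of TP53I3 and BBC3, the gene exceeded the tested unnamed locus of highest CPE level in both fractions, in CPE by 1.07 times for SESN1 up to 4.56 times for PMAIP1.

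**Figure D3:**
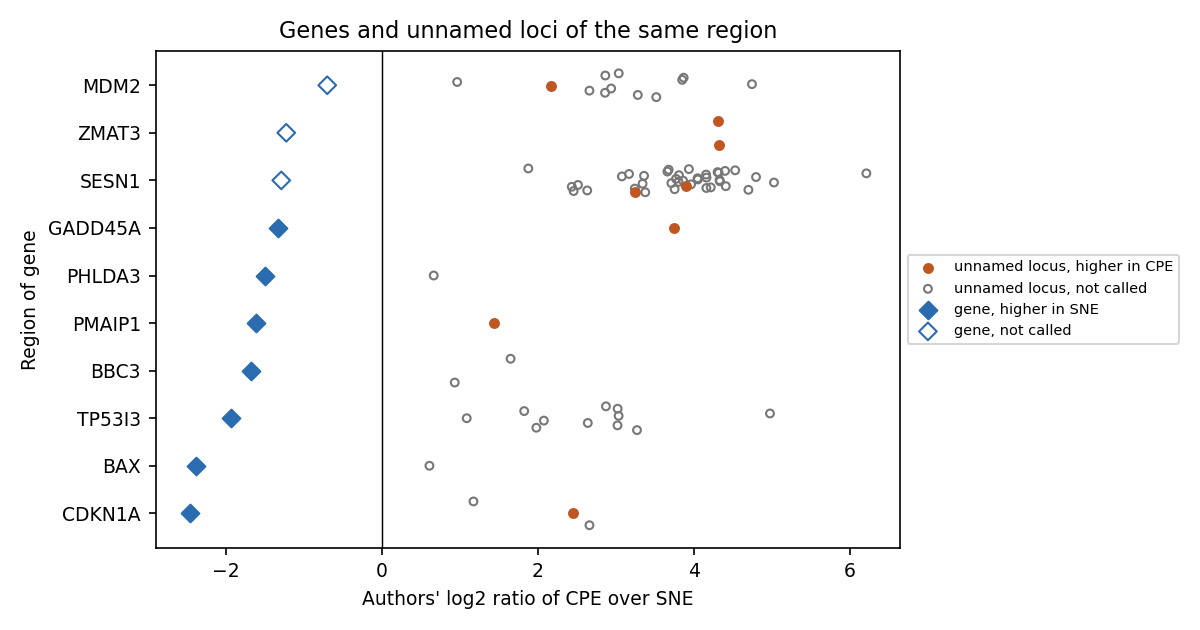
Authors' log2 ratio of CPE over SNE for each p53 target gene (diamonds, filled where called higher in SNE) and for the tested unnamed loci of its region (circles, filled where called higher in CPE), with 3 loci listed at 0 in SNE left out because their ratio is infinite. All diamonds lie below 0 and all circles above it, and the SESN1 region holds the most circles.

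By the authors' q, calls among the 10 genes followed gene length. Lengths were found for all 10 genes in GENCODE 29. All 7 called genes spanned 3.28 to 11.9 kb, and the 3 genes not called spanned 42.5 kb (MDM2), 55.1 kb (ZMAT3) and 108 kb (SESN1). The same order is seen in the table as a whole. The share of protein-coding loci called higher in SNE was 74.9% under 10 kb, 69.8% from 10 to 30 kb, 56.1% from 30 to 100 kb and 29.2% over 100 kb, with median log2 ratios of -1.95, -1.66, -1.35 and -0.91.

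Set beside genes of like length, the target genes lay on both sides. CDKN1A (10.9 kb) and BAX (6.98 kb), at -2.47 and -2.38, were below the medians of their classes, and SESN1 at -1.29 was below that of genes over 100 kb. GADD45A (3.28 kb), PHLDA3 (4.86 kb) and PMAIP1 (4.36 kb), at -1.34, -1.50 and -1.62, were above the median of -1.95 for genes under 10 kb, and MDM2 at -0.70 was above the -1.35 of genes from 30 to 100 kb. ZMAT3 (55.1 kb), in the class of MDM2, was also above its median, at -1.23. TP53I3 (-1.94) and BBC3 (-1.69) lay next to their class medians. Across the 10 genes the ratio had a Pearson r of 0.45 and a Spearman rho of 0.37 with log10 gene length, and of 0.71 and 0.65 with log10 length of the longest transcript. Without MDM2 the values were 0.33 and 0.18 for gene length and 0.52 and 0.52 for transcript length. Over 9050 protein-coding loci the values with log10 gene length were 0.40 and 0.41, and those with transcript length were not computed. These correlations are across genes of the same libraries, genes are not independent replicates, and they are descriptions only. With log2 mean FPKM the values over the 10 genes were 0.13 and 0.03.

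**Figure D4:**
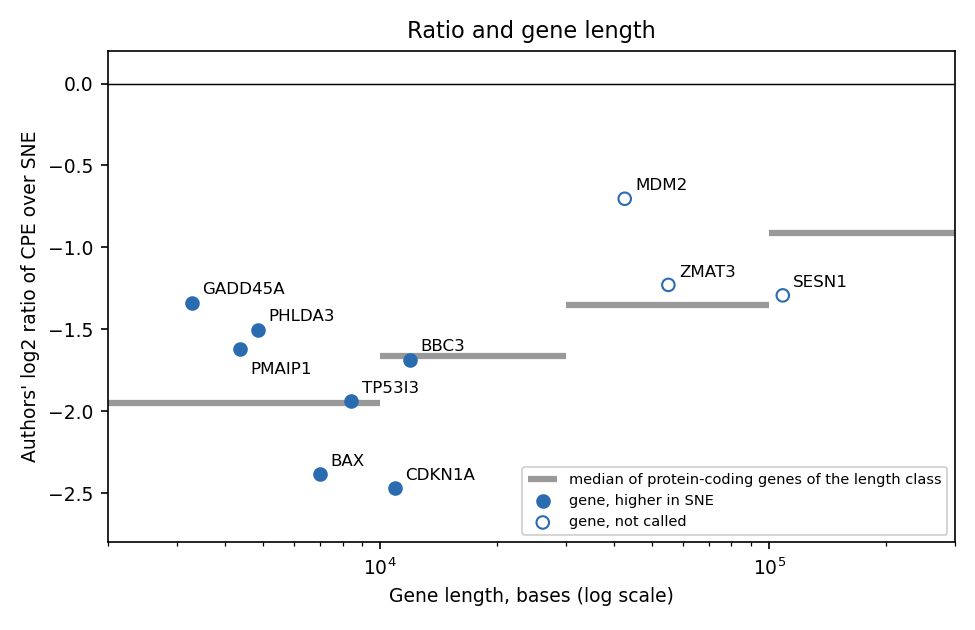
Authors' log2 ratio of CPE over SNE against gene length (log axis) for the 10 p53 target genes (filled where called higher in SNE), with grey bars for the median of protein-coding loci in 4 length classes. The 3 open points, MDM2, ZMAT3 and SESN1, are the 3 longest genes, and CDKN1A and BAX lie lowest.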

How the data were processed

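The samples were 3 SNE, 3 CPE, 2 CPE with DRB and 2 CPE mock libraries, 10 in all. Reads were processed with TopHat2 and Cuffdiff on hg19, per the submitters' processing notes. Tool versions, annotation, strand setting and library scaling are not given in the sources used here. Per locus, the deposited gene table holds, per the file headers, 1 FPKM per group, the log2 ratio of CPE over SNE, a p-value and a q-value from the authors' test, and a test statistic, which is a score of the authors that was not used. The deposited q differed by at most 5.3e-07 from a Benjamini-Hochberg adjustment over tested loci. The deposited log2 ratio of the 10 genes differed by at most 6.4e-06 from that of the FPKM values. Region starts, deposited counting from 0, are printed counting from 1. The isoform table was not used: it holds 0 rows with the 10 symbols, and 86.2% of 9306 matched FPKM pairs stood under another identifier.

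A call was status OK and q of at most 0.05. The genes and lists were chosen with earlier results of these data known. One gene of the regulator list is not reported here and is in none of the list counts. The text names the 10 genes and from each list the 2 genes of highest mean FPKM and the 2 called with the largest ratio, among rows naming 1 gene that reach an FPKM of 1 in a fraction. Lengths came from GENCODE 29 by symbol (found for 83.5% of 12630 such loci). Its coordinates were compared only with RefSeq promoters of the same assembly. Analysis used Python 3.11.15, pandas 2.3.3 and scipy 1.17.1, and the call rule was tested on simulated data. Alternatives were a stricter q, a minimum ratio, an FPKM minimum, adjustment over loci with a symbol, single-symbol rows, 2 pseudocounts (0.1 and 1) and centring.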

Additional observations from a re-analysis of the deposited data

How the results depend on the processing

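The 7 genes called higher in SNE were 7 at q of at most 0.01, 7 at an absolute log2 ratio of at least 1 and 6 at an FPKM minimum of 1 in both fractions, where BBC3 dropped out, and 0 were higher in CPE under each of these. The median log2 ratio of the 10 genes, -1.56, became -1.47 with a pseudocount of 0.1, -1.26 with 1, -1.62 over rows with 1 symbol, and -1.50 with that minimum. Centring on tested loci with a symbol that reach this minimum removes a shift of -1.33 and gave -0.23. MDM2 (0.63), ZMAT3 (0.11) and SESN1 (0.04), none of them called, then lay above 0, and GADD45A lay at the centre. Centred ratios have no test, and the authors' scaling sets the zero. At q of at most 0.01 the regulators higher in SNE were 6 in place of 10, and MDM4 was no longer called. Under the same rule the apoptosis targets were 6 in place of 9, and the repair and metabolism targets 8 in place of 11. The relatives were 6 in place of 7, and the cell cycle targets stayed at 5. With the minimum, the repair and metabolism targets higher in SNE were 7 in place of 11. No paired analysis was possible because the table holds 1 value per group, and for the same reason no replicate could be left out. Depth is unknown, so no interval was derived.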
